A study of Mus musculus with 192 samples.

Results

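The 86 genes described here encode the proteins of the cytosolic ribosome. They were chosen by name: all genes whose symbol starts with Rpl, Rps or Rplp followed by a digit, plus Rpsa, with at least 1 start-site window within 1000 bp of an annotated start, leaving out names of pseudogenes and the S6 kinases. The rule gave 1855 windows and 52 large subunit genes, 33 small subunit genes and Rps19bp1, a binding partner of Rps19 that is not itself a ribosomal protein. A peak on the gene's own strand was listed for 85 of the 86, out of 11366 genes with such a peak in the series. The strand of the remaining gene, Rpl3l, could not be read.

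The cells were MEFs (mouse embryonic fibroblasts, cultured connective tissue cells) of the C57BL/6 strain, read 1 cell at a time by start-site sequencing of polyA RNA, in which each read (a tag) marks the 5′ end of a transcript. The 96 cells labelled naïve and the 96 labelled pretreated were both given IFN-beta, an antiviral cytokine, at 100 U/ml for 1 h, so neither group is without interferon. The labels do not state the agent of the pretreatment and name no animal, culture or plate. Each group is therefore 1 sample of many cells, no difference below has a replicate check, and none was tested.

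Each ribosome holds 1 copy of most of these proteins, whose genes are spread over nearly all chromosomes and are among the most strongly expressed in growing cells. Their transcripts are known for a terminal oligopyrimidine (TOP) start, a C followed by a run of pyrimidines at the very 5′ end, through which growth signals control their translation. The genome also holds many processed pseudogenes of this family, intronless copies whose sequence is nearly that of the parent, so reads can be hard to assign between a gene and its copies.

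Of the 86 genes, 66 were matched to a promoter in the RefSeq table for GRCm38.p6, with 78 annotated starts. A C at the annotated first base followed by at least 4 pyrimidines stood at 15 of these 78 starts (19.2%) and at 2.51% of 32851 starts in the whole table. A pyrimidine run of at least 8 bases within 30 bases of the start was held by 47.4% against 22.9%. The 60 bases around the annotated start are shown for 4 genes that were lower in pretreated cells, 2 that differed by less than 2-fold and 2 that were higher. The first 30 bases lie before the start, and the longest pyrimidine run is in capitals. Rpl35a has 3 annotated starts, of which the one with the longest run is shown. Rpl35a and Rps10 among them were chosen after their values were seen.
Rpl4: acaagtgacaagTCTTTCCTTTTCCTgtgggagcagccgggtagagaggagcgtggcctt
Rplp2: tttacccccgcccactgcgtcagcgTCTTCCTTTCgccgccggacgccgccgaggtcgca
Rps6: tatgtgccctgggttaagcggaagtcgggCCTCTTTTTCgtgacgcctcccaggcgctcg
Rpl35a: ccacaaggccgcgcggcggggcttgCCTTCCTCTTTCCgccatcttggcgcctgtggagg
Rpl15: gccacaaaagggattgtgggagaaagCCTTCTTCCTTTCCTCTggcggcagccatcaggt
Rps10: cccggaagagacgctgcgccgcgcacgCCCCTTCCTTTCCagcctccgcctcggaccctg
Rpl13a: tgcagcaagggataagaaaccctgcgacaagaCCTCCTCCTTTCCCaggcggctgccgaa
Rpsa: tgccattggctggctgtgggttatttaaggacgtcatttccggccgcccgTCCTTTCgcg
The run is 14 bases in Rpl4 and in Rpl13a, 17 in Rpl15 and 7 in Rpsa. The run of Rpl4 begins 18 bases before the annotated start and ends before it. Whether run length goes with the difference between groups was not tested. On GRCm38.p6 the stretch of Rpl4 is chr9:64173357-64173416 on the + strand, that of Rplp2 chr7:141447621-141447680 (+), that of Rps6 chr4:86857338-86857397 (-), and that of Rpl15 chr14:18270957-18271016 (-). Those of Rpl35a, Rps10, Rpl13a and Rpsa are chr16:33056452-33056511 (+), chr17:27635215-27635274 (-), chr7:45128716-45128775 (-) and chr9:120127736-120127795 (+). Among the 18 matched genes that were at least 2-fold lower in pretreated cells, 5 had the C and pyrimidines at the annotated start, as had 15 of all 66 matched genes. The sequences at the starts measured in these cells, which can lie elsewhere, were not read.

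Other short motifs were searched in the 300 bases from 250 before to 50 after each start. CCGGAAG, the core bound by ETS-family factors, was present on either strand at 33.3% of the starts of these genes and at 8.86% of all starts. GGGCGG, the core of a GC box, was present on either strand at 58.97% against 35.7%, and AAGATGGC, a core bound by YY1, at 10.3% against 2.75%. The TATA box letters TATAAA on the gene strand were at 8.97% against 8.32%. These are matches of letters in a fixed window and say nothing of binding.

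After cells with less than 10% of the median tag total were left out, 92 naïve and 85 pretreated cells remained, with 305066 to 3857034 and 502374 to 13174313 tags per cell. Promoter tags on the gene strand made up 54.3% of all naïve tags and 61.1% of pretreated ones. Naïve cells listed 1287 peaks on the mitochondrial chromosome and 393 on random or unplaced sequence, and pretreated cells listed 0 of both kinds. The files of the groups thus differ in the sequences on which peaks are listed, and differences in processing cannot be told apart from differences between the groups in any value below. Fibroblast markers were present (10 of 11 with tags, summing to 2747 and 3059 tags per 1000000 promoter tags), while macrophage, endothelial and neuronal lists summed to at most 17.2 and epithelial, erythroid and muscle lists to 0. Interferon-stimulated genes held 1.03% of naïve and 2.87% of pretreated promoter tags. A peak is listed only above a fixed scaled level, so a gene without a peak in a cell is described as listed at 0, which is not the same as silent.

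Ribosomal protein genes took a smaller share of promoter tags in pretreated than in naïve cells. Their share was 4.96% in the summed naïve cells (95% exact binomial interval 4.953 to 4.961) and 2.90% in the pretreated cells (2.902 to 2.907), a log2 ratio of -0.77. The intervals cover counting error of reads only. Across single cells the naïve share had a lowest value of 2.72%, a median of 4.91% and a highest of 6.74%. In pretreated cells the lowest was 1.06%, the median 2.83% and the highest 4.19%. The ranges overlapped: 19 naïve and 50 pretreated cells lay inside the range of the other group. In bulk sums of this kind, fewer transcripts per cell and a larger share of other transcripts cannot be told apart.

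**Figure D1:**
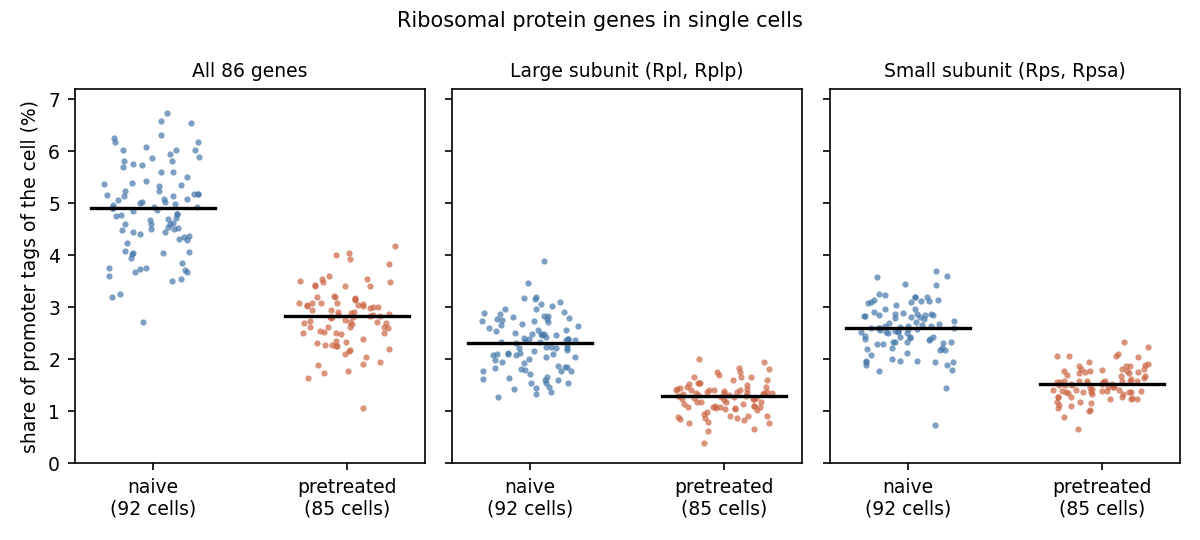
Share of each cell's promoter tags (%) at ribosomal protein genes, for all 86 genes and for the large and small subunit; each point is 1 cell and the black line is the median. The naïve median of 4.91% lies above the highest pretreated cell at 4.19%, while the lowest naïve cells fall within the pretreated range.

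The difference was seen in both subunits. Large subunit genes took 2.32% of naïve and 1.31% of pretreated promoter tags, and small subunit genes 2.63% and 1.58%. Within a cell the small subunit share was usually the larger: the large subunit share exceeded it in 21 of 92 naïve and 8 of 85 pretreated cells. Over cells of 1 group, which do not count as replicates, the 2 shares correlated with Pearson's r of 0.37 in 92 naïve and 0.75 in 85 pretreated cells. Spearman's rank correlation of the 2 shares was closer between the groups, at 0.49 and 0.68. By Pearson's r, the share of all these genes correlated with that of translation factors known for TOP starts at 0.49 and 0.62. With the share of interferon-stimulated genes r was -0.43 and -0.04, and with the tag total 0.15 and 0.18. These shares have a common denominator within a cell, and the values are descriptions.

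The lower share was uneven over the genes. Of the 71 genes at 50 tags per 1000000 promoter tags (CPM) or more in either group, 23 were at least 2-fold lower in pretreated cells (32.4%, against 13.1% of all 3069 genes at that level) and 4 were at least 2-fold higher (5.63%, against 21.2%). With median-of-ratios scaling, which lowers all ratios by 0.12, 24 were lower and 1 higher, since Rpl8, Rpl13a and Rpsa lie just above 2-fold. In all, 51 of the 71 had a ratio below 0 and 20 above. Their median log2 ratio was -0.44 (quartiles -1.70 and 0.02), and the median over all 3069 genes was 0.21. Of 42 large subunit genes at that level, 12 were at least 2-fold lower and 2 higher (median -0.44). Of 28 small subunit genes, 11 were lower and 1 higher (median -0.76). Genes were compared by tags at their starts, which needs no correction for transcript length.

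**Figure D2:**
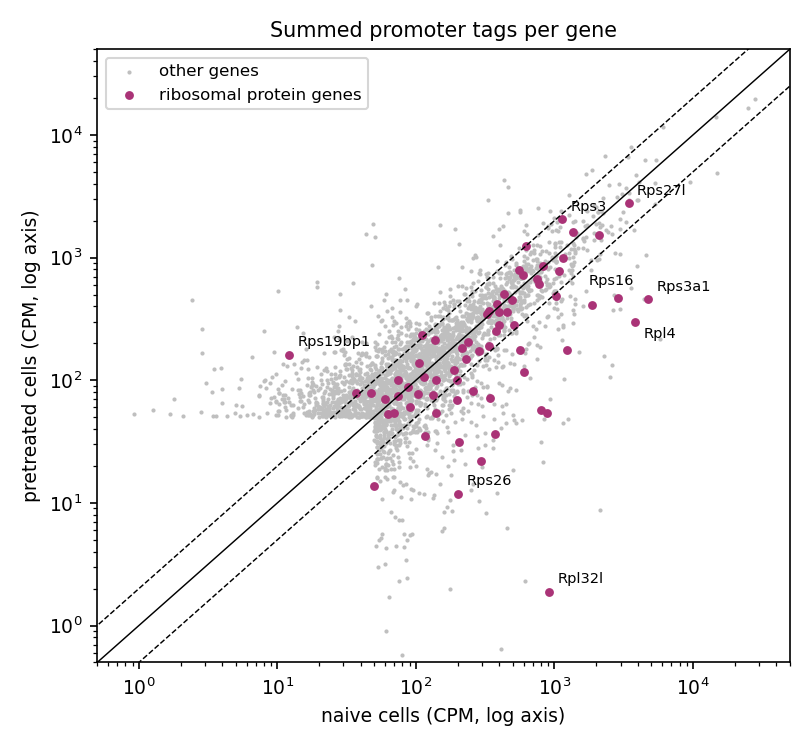
Promoter CPM of each gene in naïve (x, log axis) and pretreated (y, log axis) cells, for genes at 50 or more in either group and above 0 in both; the solid line marks equality and the dashed lines 2-fold. Most ribosomal protein genes lie below the line, with Rps3a1, Rpl4 and Rps16 among the highest naïve values, and Rps19bp1 above it.

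Among the 10 genes with the most tags, 4 were at least 2-fold lower in pretreated cells and 6 differed by less than 2-fold. These 10 held 53.5% of the group's tags in naïve and 47.995% in pretreated cells. Rps3a1, a small subunit protein, had the highest level in naïve cells. Its signal, in tags per 10000000 tags of the cell, had a lowest value of 1573, a median of 25689 and a highest of 53296 over naïve cells. In pretreated cells the lowest was 0.0, the median 2655 and the highest 7623. Of the 92 naïve cells, 90 exceeded the highest pretreated cell. Summed over cells it stood at 4722 and 459 CPM, a log2 ratio of -3.36 (95% counting interval -3.37 to -3.35).

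Rpl4, a large subunit protein that reaches into the peptide exit tunnel, differed by as much. Its signal ran from 688 over a median of 18975 to 39074 in naïve cells, and from 0.0 over 1756 to 3493 in pretreated cells. Here too 90 of 92 naïve cells lay above all pretreated cells. Summed over cells the level was 3817 CPM (naïve) and 301 CPM (pretreated), with a log2 ratio of -3.66 (-3.68 to -3.65). Rps16, a small subunit protein whose tail reaches the decoding site, stood at 2883 and 472 CPM (log2 ratio -2.61), with 81 naïve cells above the highest pretreated one.

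The other high genes kept closer levels. Rps27l, a paralog of Rps27 known as a p53 target, had 3432 CPM in naïve and 2778 in pretreated cells, and its cell ranges (1180 to 54082 and 2449 to 32566) overlapped almost wholly. Rpl41, the smallest ribosomal protein, had 2091 and 1540 CPM. Rps20 was at 1358 and 1605 CPM (log2 ratio 0.24). Rps3, which lines the mRNA entry channel and also has a part in DNA repair, was higher in pretreated cells at 2058 against 1136 CPM (log2 ratio 0.86), and 22 pretreated cells exceeded the highest naïve cell.

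The order of the genes therefore differed between groups. The most abundant ribosomal protein gene of a cell was Rps3a1 in 50, Rpl4 in 16 and Rps27l in 11 of the 92 naïve cells. In pretreated cells it was Rps27l in 44 and Rps3 in 7 of 85, and neither Rps3a1 nor Rpl4 in any.

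Both stalk proteins above the 50 CPM minimum, which recruit translation factors to the large subunit, were lower in pretreated cells. Rplp2 had a signal of 721, 9030 and 28058 (lowest, median and highest) over naïve cells and 0.0, 2096 and 11465 over pretreated cells. The ranges overlapped, with 30 naïve cells above the highest pretreated cell, and the sums were 1871 and 409 CPM (log2 ratio -2.19). Rplp1 was at 374 and 36.6 CPM (-3.35) and was listed in 89 of 92 naïve and 43 of 85 pretreated cells. Rplp0, the base of the stalk, was listed in only 13 and 22 cells, at 23.4 and 12.03 CPM, under the 50 CPM minimum. Its pseudogene Gm8730 held far more tags than the gene, as given further on.

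Rpl32l, annotated as an Rpl32-like gene and thus not a standard subunit, showed the widest gap. All 92 naïve cells listed it, from 295 over a median of 4502 to 11517, and 2 of 85 pretreated cells did, at no more than 279. It was the 1 gene of the 71, and also the 1 gene (0.0326%) of all 3069, whose cell ranges did not overlap, and its sums were 919 and 1.88 CPM (log2 ratio -8.93). Rpl32 itself was at 778 and 613 CPM. How reads that match both Rpl32 and Rpl32l were assigned is not given in the sources used here.

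Low ratios were also those of Rps26, Rpl26 and Rps13. Rps26, at the mRNA exit channel and a gene mutated in Diamond-Blackfan anemia, was at 202 and 11.9 CPM (-4.09) and was listed in 91 naïve and 17 pretreated cells. Rpl26, near the mouth of the exit tunnel, was at 880 and 54.4 CPM (-4.01), and 60 naïve cells exceeded the highest pretreated cell. Rps13 was at 797 and 56.8 CPM (-3.81), with naïve cells from 0.0 over 3682 to 13443 and pretreated cells from 0.0 over 215 to 3662. Rps6, the target of S6 kinase, was at 204 and 31.3 CPM (-2.71). Other genes at least 2-fold lower included Rpl9, Rpl17, Rpl31, Rpl35a, Rpl36a, Rpl39, Rps7, Rps15, Rps15a, Rps28 and Rps29. Among all the 23 lower genes apart from Rpl32l, between 6 and 90 naïve cells lay above the highest pretreated cell.

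The 4 genes at least 2-fold higher in pretreated cells were Rps19bp1, Rpsa, Rpl13a and Rpl8. Rps19bp1, which also activates the deacetylase Sirt1, was at 12.1 and 162 CPM (log2 ratio 3.73, 3.66 to 3.81) and was listed in 13 of 92 naïve and 73 of 85 pretreated cells. Its signal was 0.0 at the lowest and the median and 1789 at the highest in naïve cells, and 0.0, 720.0 and 5183 in pretreated cells, of which 12 exceeded all naïve cells. Rpsa, a small subunit protein also known as the laminin receptor, was at 36.8 and 79.04 CPM (1.10) and was listed in 20 and 74 cells. Rpl8, close to the peptidyl transferase center, was at 622 and 1254 CPM (1.01).

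Rpl13a, known for leaving the ribosome to silence inflammatory mRNAs in interferon-gamma-treated myeloid cells, was at 110.1 and 233 CPM (1.08) and was listed in 51 naïve and 81 pretreated cells. Its signal had a median of 435 and a highest value of 24650 in naïve cells, and a median of 1339 and a highest value of 3715 in pretreated cells. The highest 3 naïve cells lay above all pretreated cells although the naïve sum was the lower one. The highest value was that of the naïve cell with the fewest tags (305066), where Rpl13a held 59.97% of the ribosomal protein tags. Rpl5 and Rpl11, which form the 5S particle and bind Mdm2 when ribosome assembly is disturbed, were at 383 and 418 CPM (0.13) and at 106 and 137 CPM (0.38). With its near-identical pseudogenes added, as described further on, Rpl11 stood at -1.85.

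Paralog pairs differed in how far their members parted. Rpl36a was at 197 and 68.7 CPM (-1.52) and Rpl36al, which encodes an almost identical protein, at 752 and 670.1 CPM (-0.17). Rps27 was listed in 2 naïve and 1 pretreated cells against all 177 cells for Rps27l. Rpl3 was at 13.5 and 9.65 CPM. Rpl3l, a paralog of striated muscle, had 1 window, too few to read its strand, so its peaks could not be counted. With strand left aside, 0 naïve and 44 pretreated tags lay within 1000 bp of its start. Rpl7 was at 188 and 121 CPM (-0.63) and Rpl7l1 at 34.4 and 27.6 (-0.31), Rpl22 at 29.04 and 35.6 (0.29) and Rpl22l1 at 14.3 and 17.6 (0.30), and Rpl10 at 46.96 and 41.8 CPM. Rpl39, on the wall of the exit tunnel, was at 296 and 22.2 CPM (-3.74), and Rps4x, the X-linked form of Rps4, at 73.7 and 74.7 CPM (0.02). The value of Rps4x leaves out its near-identical pseudogene Gm13680, which held 67154 naïve and 6253 pretreated tags. Rps27a, made as a fusion with ubiquitin, was listed in 1 naïve cell and at 0 in pretreated cells.

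Most of these genes have near-identical copies, and tags at the copies differed between groups more than tags at the genes. Of 84 genes matched to a protein-coding transcript, 78 had a pseudogene of at least 95% identity over at least 100 bases in GENCODE vM21, and 107 of 648 such copies held tags. In naïve cells the copies held 4425094 tags and in pretreated cells 835616, which is 44.7% and 14.1% of the tags of genes and copies together. The totals behind these tags were 110407003 and 175169103 promoter tags. Gm10269, a copy of Rpl35, alone had 1475771 naïve and 6844 pretreated tags, and was listed in 92 and 54 cells. Gm8730, a copy of Rplp0, had 588245 and 28852 tags, and Rpl3-ps1 451301 and 13035. Not all copies followed: Rpl36a-ps3 had 91079 and 166579 tags.

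Adding the copies made the difference larger. Genes and copies together took 8.96% of naïve and 3.38% of pretreated promoter tags (log2 ratio -1.41). Of the 23 lower genes, the 22 with a copy all stayed at least 2-fold lower with their copies added. Rpl32l was matched to no transcript, so no copies were sought for it. With copies added Rpl13a stood at 0.36 and Rpsa at 0.47, both under 2-fold. The median log2 ratio of the 65 genes at 50 CPM with a copy was -0.46, and -1.24 with their copies added. Among the 5 genes at 50 CPM without such a copy (Rpl37, Rpl41, Rps19bp1 and Rps27l among them), 0 were 2-fold lower, 1 was higher and the median was -0.31. Only pseudogenes were counted as copies. Gm10076, a non-coding gene that resembles Rpl41, was thus left out of the copies and of the sums above. It held 1960072 naïve and 56521 pretreated tags. Rpl37rt, a retrogene of Rpl37, is itself among the genes described here and was not counted as a copy of Rpl37 either. How reads that match a gene and its copies were assigned is not given in the sources used here, and its part in the differences was not tested.

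**Figure D3:**
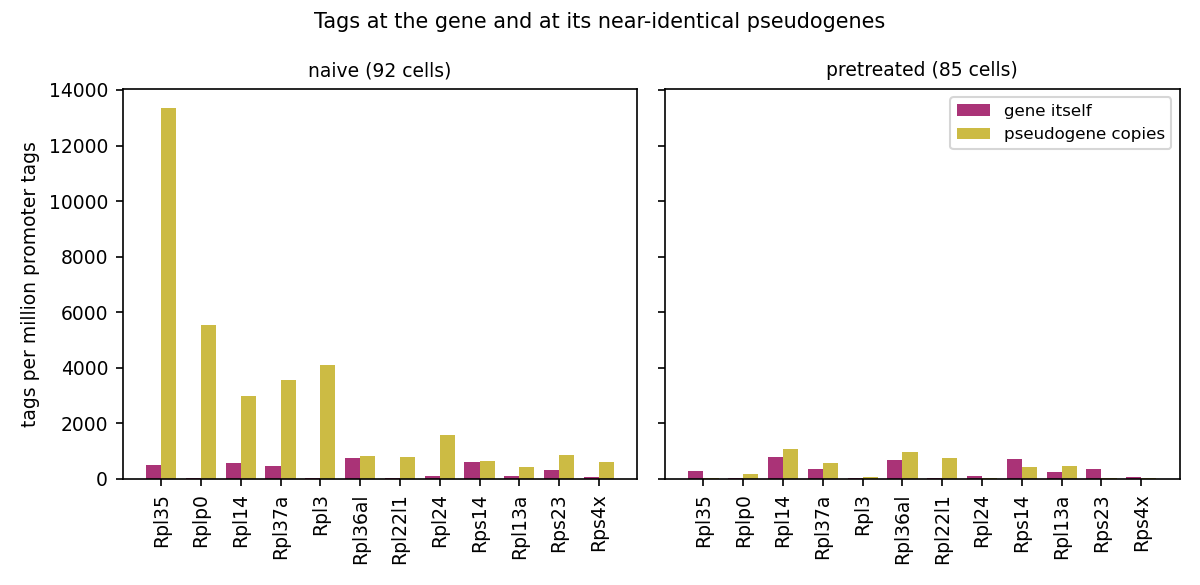
Promoter CPM at the gene itself and summed over its near-identical pseudogenes, for the 12 genes with the most copy tags, in naïve (left) and pretreated (right) cells. Copies of Rpl35, Rplp0, Rpl3, Rpl37a and Rpl14 lead in naïve cells, where the copies of Rpl35 and Rplp0 stand highest, and are lower in pretreated cells, while the bars of Rpl14 itself and of the copies of Rpl36al are higher there.

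The number of ribosomal protein genes listed in a cell was about the same in both groups, unlike their share of tags. A naïve cell listed between 22 and 70 of them (median 57.5) and a pretreated cell between 17 and 71 (median 59). The median gene was listed in 82.6% of naïve and 83.5% of pretreated cells, a difference whose sign turned under 5 of the alternatives tried. In naïve cells 12 genes were listed in every cell, in pretreated cells 7, and 6 were listed in all cells of both groups. Pretreated cells listed more genes in all, so ribosomal protein genes were a median of 2.93% of the genes of a naïve cell and 2.02% of those of a pretreated cell.

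The start positions of several genes also differed. The window centre of a peak lies at its highest pile-up, so its distance to the annotated start gives the position of the start. Rps3a1 had 99.8% of its naïve tags in a single window 74 bp downstream of the annotated start (mm9 chr3:85946442-85946591, annotated as promoter), listed in all 92 naïve cells and in 1 pretreated cell. In pretreated cells 46.8% of its tags lay 35 bp from the start (chr3:85946481-85946630), a window listed in 32 pretreated and no naïve cells. Rps13 had 93.3% of its naïve tags at 55 bp (chr7:123477575-123477724), listed in 85 naïve cells and 0 pretreated cells, in which 52.9% lay at 19 bp. Rplp1 had 76.3% at 31 bp upstream of the annotated start, a window listed in 64 naïve and 0 pretreated cells.

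Some genes had nearly all their tags in 1 shared window, whether or not their level differed. Rpl4 had 100% of naïve and 98.1% of pretreated tags at 13 bp upstream of its start (chr9:64021107-64021256). Rps16 had 99.7% and 92.01% at 60 bp. Rpl13a had the same leading window in both groups, with 48.2% and 94.3% of its tags at 6 bp. In all, 31 of 84 genes with tags in both groups had the same leading window, as had 30 of the 71 at 50 CPM (42.3%, against 37.7% of all 3069 genes), and in 65 of these 71 (91.5%, against 89.7%) the leading windows lay within 50 bp of each other. The leading window held a median of 36.8% of a gene's naïve tags and 37.4% of its pretreated tags, and the sign of that difference turned under 3 of the alternatives. Of the 90 windows that 20% or more of a group's cells listed, 13 (14.4%, against 4.63% of 2115 such windows of all genes) were listed in naïve cells alone and 4 (4.44%, against 3.36%) in pretreated cells alone.

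**Figure D4:**
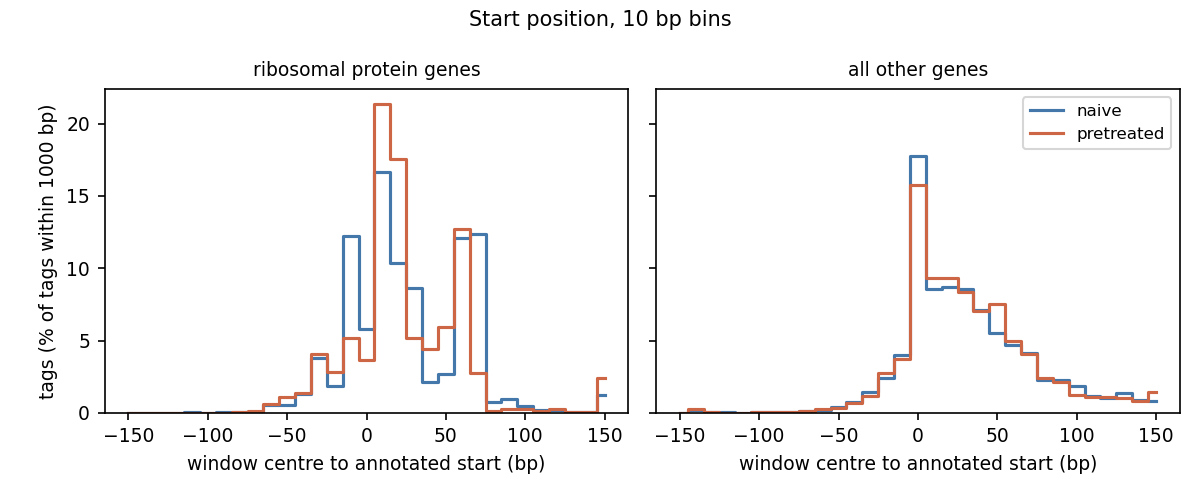
Distribution of tags by the distance of the window centre from the annotated start, in 10 bp bins, for ribosomal protein genes (left) and all other genes (right); the y axis is the percentage of tags within 1000 bp. Ribosomal protein genes have separate peaks carried by single genes, such as Rpl4 upstream of the start and Rps3a1 at 74 bp in naïve cells. Other genes have their highest peak in the bin at the annotated start (17.8% of naïve and 15.8% of pretreated tags) and a broad shoulder downstream.

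Tags near the annotated start were about as frequent as at other genes. Within 50 bp lay 63.3% of naïve and 66.7% of pretreated tags of these genes, against 62.6% and 63.1% for other genes. The subunits differed in opposite directions, with 79.3% and 65.3% for large and 49.1% and 67.5% for small subunit genes, among which Rps3a1 had 0.0% of naïve and 74.2% of pretreated tags there. Over the genes without a near-identical pseudogene copy the shares were 84.9% and 77.7%, the reverse order. The lowest shares were those of Rps3 and Rps20, with 0.0% in both groups and leading windows at 58 and 55 bp, and of Rpl29, with 2.13% and 0.0% and its leading window at 152 bp in the 5′ UTR of exon 1.

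Starts were less focused in pretreated cells, as they were at other genes. HOMER's focus ratio gives the fraction of a peak that lies around its highest position. Over 70 genes listed in at least 20 cells of each group, the median was 0.942 in naïve and 0.843 in pretreated cells, lower in pretreated cells for 53 of them (75.7%), against 0.953 and 0.872 for other genes and a lower median in 89.9% of all 2691 genes listed as often. Within cells, the median of these genes was below that of other genes in 72 of 92 naïve and 73 of 85 pretreated cells. The median of Rps6 was 0.990 in naïve and 0.653 in pretreated cells, and that of Rpl30 0.938 and 0.697. The opposite was seen for Rpl15 (0.75 and 0.972), Rpl31 (0.864 and 0.975) and Rps9 (0.840 and 0.950). Values of a gene came from different windows in the groups where its leading window differed, as for Rps6 and Rpl15.

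Related gene lists are given beside the shares over all genes, 13.1% lower and 21.2% higher. Fau and Rack1, ribosomal proteins outside the naming rule, were at 2555 and 1798 CPM (-0.51) and at 1407 and 1996 CPM (0.50), both under 2-fold. Of 15 translation factors and other genes known for TOP starts, 10 reached 50 CPM, of which 5 were at least 2-fold lower and 1 higher, with a median log2 ratio of -1.15. Of 21 ribosome biogenesis genes at that level 3 (14.3%) were lower and 2 higher (median 0.07), and of 67 mitochondrial ribosomal protein genes 8 (11.9%) were lower and 6 higher (median 0.20), beside a median of 0.21 over all genes. The shares of lower genes in the last 2 lists lie near that over all genes.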

How the data were processed

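Each cell had 1 peak list, called by the authors with HOMER findPeaks on each strand, per the file headers, and the submitters' processing notes name mm9 and Bowtie2; read filters and the handling of multiply matching reads are not given in the sources used here. The deposited signal gives tags per 10000000 tags in that cell's library (per the file headers), and the deposited focus ratio is a fraction. Multiplying back by the header total recovered tags, whole to 0.1 tag or to the printed precision for each of the 1082504 peaks. Tags are reads, not molecules. Peaks within 2 bp of a window of the authors' RefSeq annotation table took its gene and distance to the start. The gene strand was read from how distance changes with position, and equalled RefSeq in 65 of 66 genes. That of Rpl3l, with 1 window, could not be read. Promoter peaks without a strand (0.575%) were left out. A deposited pair of matrices with 384 unnamed columns, and the UCSC table, were not used here.

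Group values are sums over kept cells, as CPM of the promoter tags on gene strands. Log2 ratios have 0.5 tag added. Intervals are exact binomial (Clopper-Pearson) at 95% and cover counting error only. Each group counts as 1 sample, so no test was run. Fold counting was tested on simulated data. Copies were found with BLAST 2.17.0 on GENCODE vM21 transcripts. Python 3.11.15, numpy 2.4.6, pandas 2.3.3 and scipy 1.17.1 were used. Named genes are the 10 highest by mean CPM, the 5 highest and 5 lowest ratios, the 3 largest falls and rises in focus ratio, the 3 lowest shares near the start, and genes listed by role or as paralog pairs; other names were chosen after their values were seen. The gene set and the lists were chosen with earlier results of these data known. Some genes that the naming rule picked are not reported here.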

Additional observations from a re-analysis of the deposited data

Results flagged for a closer look

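Tags outside the main measurement were listed for the same genes. More than 1000 bp from an annotated start, on the gene strand, windows assigned to these genes by nearest start summed to 1162573 naïve and 541735 pretreated tags. Most of these tags lay at windows assigned to Rpl37rt (757112 and 110569) and Rpl8 (214474 and 365355). Whether they come from transcripts of the assigned genes was not tested. On the other strand within 1000 bp the genes had 21911 tags in naïve and 20578 in pretreated cells. That was about 0.40% of the tags on both strands in each group.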

How the results depend on the processing

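Under every alternative run, the share of promoter tags and the median log2 ratio stayed lower in pretreated cells. The share's log2 ratio (main -0.77) was -0.84 with windows within 100 bp, -0.60 with header totals, -0.80 with cells weighted equally, -0.72 without genes that have a named pseudogene and -1.06 with the GENCODE table. Of the alternatives chosen after seeing the data, it was -0.75 without the retrogenes and Rps19bp1, and -0.29 over genes without a near-identical pseudogene copy. Rpl41 is among the latter, since the non-coding Gm10076 was not counted as a copy. So is Rpl37, whose retrogene Rpl37rt was not counted as a copy. The median (main -0.44) was -0.38, -0.31, -0.47, -0.36 and -0.47 in the order of the first 5, -0.57 with median-of-ratios scaling, -0.47 at 200 CPM and -0.31 without copies. Header totals raised all ratios by 0.17 and median-of-ratios scaling lowered them by 0.12. The count higher (main 4) was 1 with median-of-ratios scaling, against 24 lower, and 2 at 200 CPM, 2 without named pseudogenes and 1 without copies. The count lower (main 23) was 8 without named pseudogenes and 0 without copies, where fewer genes were counted (31 and 5).

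The difference in the median percentage of cells listing a gene (main 0.92 points) reversed to -1.15 within 100 bp, -4.17 with all cells, -0.57 with cells above 25% of the median total, -2.75 without named pseudogenes and -0.17 without retrogenes and Rps19bp1; after thinning to 552724 tags (76 and 83 cells) it was 1.44. The median focus difference (main -0.10) was -0.11 within 100 bp, -0.061 without named pseudogenes and -0.058 without copies. The leading-window difference (main 0.67 points) reversed to -1.24 within 100 bp, -2.39 with equal weights and -0.16 above 25% of the median, and was 2.60 without named pseudogenes and 21.5 without copies. The difference in tags near the start (main 3.43 points) was 3.80 with equal weights, 3.29 within 25 bp and 3.96 without retrogenes, and reversed to -2.77 without named pseudogenes and -7.25 without copies. The cause was not tested. No paired analysis was possible because each group counts as 1 sample without a test, and cell numbers are only names. Rplp0, Rpl3 and Rps27 were listed in few cells, so their values rest on few peaks; Rplp0 and Rpl3 have copies with many more tags.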

Other observations

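More than 1000 bp away, windows whose nearest annotated start was that of Rpl37rt, a retrogene of Rpl37, summed to 757112 naïve and 110569 pretreated tags. Whether these tags come from Rpl37rt transcripts was not tested. Its windows within 1000 bp gave only 1.01 and 0.94 CPM. The leading one was annotated as a transcript end in naïve and as an intron in pretreated cells, not as a promoter. Scaled to 1000000 promoter tags, the far tags were 6857 and 631. Rpl8 had 214474 and 365355 such tags, 1943 and 2086 per 1000000 promoter tags, a smaller difference than at its promoter (622 and 1254 CPM). Gm10076, a non-coding gene that resembles Rpl41, was listed in all 92 naïve and 85 pretreated cells, with 1960072 and 56521 tags. It is not a pseudogene by annotation and was not counted among the copies. The copy of Rpl14, Rpl14-ps1, had 328200 and 185828 tags, and that of Rpl22l1, Gm15421, had 87487 and 133575. These tags are not scaled to the promoter tags, of which pretreated cells had more. Scaled and with its copies added, Rpl22l1 stood at a log2 ratio of -0.05.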
